A study of Oryctolagus cuniculus with 17 samples.

Results

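The glucocorticoid receptor and 8 genes that govern or report its activity were followed in the lungs of preterm rabbit pups breathing 95% or 21% oxygen. The 9 genes were the receptor gene NR3C1, the cortisol-converting enzymes HSD11B1 and HSD11B2, and the receptor's target genes FKBP5, TSC22D3, ZBTB16, DUSP1, SGK1 and ERRFI1. They were picked by the human gene name that the count table pairs with each rabbit gene, out of 13827 genes, and all 9 had 1 entry each and passed the filter on low counts. RNA of New Zealand White pups, taken from the doe at gestational day 28 and tube-fed with a milk replacer, was sequenced after 3, 5 or 7 days in hyperoxia (95% oxygen, HT3, HT5 and HT7) or normoxia (21% oxygen, NT3, NT5 and NT7). The material was homogenate of the right lung according to the sample labels. Each group held 3 libraries apart from HT5, which held 2, giving 8 hyperoxia and 9 normoxia libraries in all. Preterm birth and artificial feeding were thus shared by both arms, and no pups born at term were among the samples.

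Glucocorticoids such as cortisol enter the cell and bind a receptor that a chaperone complex built around HSP90 holds in the cytoplasm. The loaded receptor moves to the nucleus, where it switches on genes that restrain inflammation and alter metabolism, and holds down cytokines and other inflammatory genes. In the lung before and after birth this hormone is known for promoting maturation of the airspaces and of surfactant production, and a pair of enzymes sets how much active hormone the receptor sees. HSD11B1 regenerates cortisol from inactive cortisone, and HSD11B2 does the reverse.

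The libraries held 13123731 to 18111086 counts with each locus counted once, and TMM scaling factors ran from 0.958 to 1.05. Levels are given as CPM, each count divided by the TMM-scaled total of all tested entries of its library, 14506754 to 19958516 before scaling, where a locus that holds several genes enters more than once. Because the table gives no transcript lengths, levels were compared between libraries and never between genes. Changes are log2 fold changes (log2FC), and a gene was called higher or lower at an adjusted p-value under 0.05 over all 13142 tested genes. The labels number the replicates without saying what separates them, so p-values measure the spread between these libraries. Libraries were bulk tissue, in which fewer cells of a type and less RNA per cell cannot be told apart.

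The receptor gene was lower in hyperoxia on day 5 and lower still on day 7, while the normoxia libraries of the 3 days lay between 238 and 292 CPM. NR3C1 (chromosome 3, 25228548 to 25330915, strand -1) stood at 257, 234 and 237 CPM in the HT3 libraries and at 255, 272 and 269 CPM in NT3. On day 5 the HT5 libraries had 178 and 168 CPM against 238, 292 and 252 CPM in NT5. On day 7 the HT7 libraries had 83.7, 134 and 116 CPM against 248, 255.7 and 250 CPM in NT7. The groups overlapped on day 3 and were fully apart on days 5 and 7, with hyperoxia lower. The log2FC of hyperoxia against normoxia was -0.13 ± 0.132 (SE) on day 3, -0.59 ± 0.151 on day 5 and -1.18 ± 0.135 on day 7, which is 2.26-fold lower on day 7. The edgeR quasi-likelihood test with Benjamini-Hochberg adjustment gave adjusted p-values of 0.696, 0.00912 and 1.19e-05 on the 3 days. The day 7 call held in each of 6 fits that left 1 library out, and the day 5 call was lost without HT5 replicate 2, where log2FC was -0.57.

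**Figure D1:**
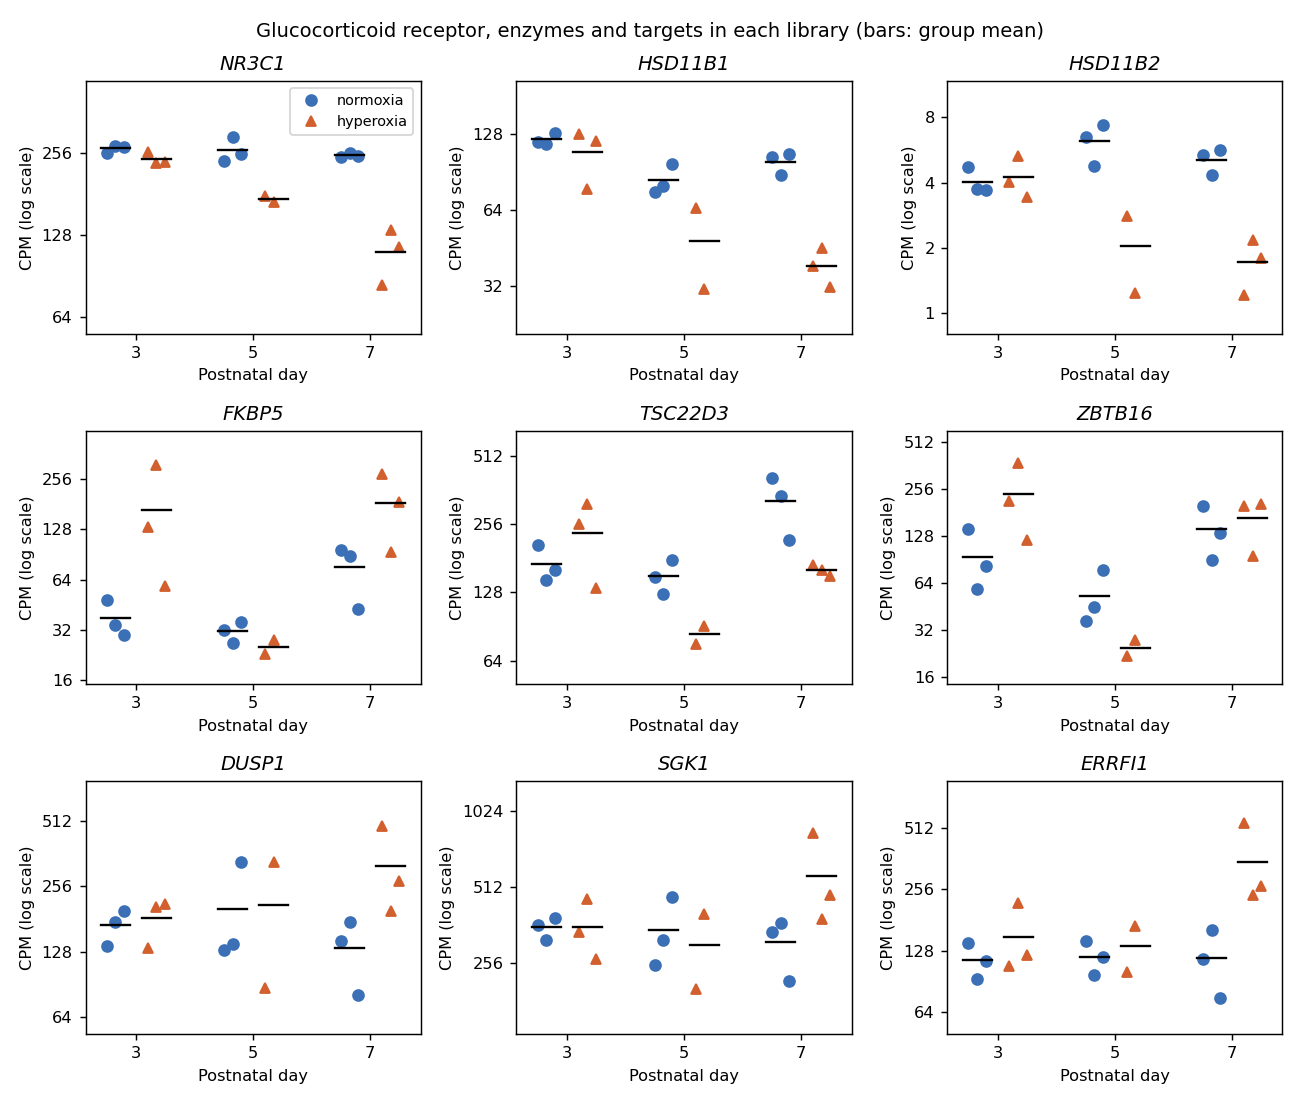
Level in CPM of each of the 9 genes in every library, 1 panel per gene on its own log axis, by postnatal day, for normoxia and hyperoxia. Points are single libraries and bars are group means. NR3C1, HSD11B1 and HSD11B2 ran below normoxia on days 5 and 7, and FKBP5 and ZBTB16 were lowest in hyperoxia on day 5, at 23.0 to 28.0 and 21.9 to 27.7 CPM.

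Both enzymes that convert cortisol were also lower on days 5 and 7. HSD11B1 (chromosome 16, 62945260 to 62978616, strand -1) had 127, 77.5 and 119 CPM in HT3 and 118, 117 and 129 CPM in NT3. It had 65.4 and 31.3 CPM in HT5 against 75.3, 79.5 and 97.1 CPM in NT5, and 38.5, 45.4 and 31.9 CPM in HT7 against 103, 87.8 and 106 CPM in NT7. Hyperoxia lay below every normoxia library from day 5 on. The log2FC was -0.17 ± 0.23 on day 3, -0.80 ± 0.265 on day 5 and then -1.36 ± 0.236 by day 7, with edgeR adjusted p-values of 0.78, 0.0333 and 0.000301.

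HSD11B2 (chromosome 5, 23015528 to 23020581, strand 1) was the least counted of the 9 genes, at 21 to 142 counts per library. Its level was 4.02, 5.32 and 3.44 CPM in HT3 and 4.71, 3.73 and 3.70 CPM in NT3. It was 2.82 and 1.24 CPM in HT5 against 6.48, 4.77 and 7.34 CPM in NT5, and 1.21, 2.18 and 1.79 CPM in HT7 against 5.33, 4.32 and 5.67 CPM in NT7. All hyperoxia libraries of days 5 and 7 sat below all normoxia libraries of the same day. The log2FC moved from 0.08 ± 0.301 on day 3 to -1.62 ± 0.361 and -1.56 ± 0.315 on days 5 and 7, with edgeR adjusted p-values of 0.936, 0.00423 and 0.000971. The day 5 call of HSD11B2 held in 4 and that of HSD11B1 in 2 of 5 fits that left 1 library out, the latter being lost also without NT5 replicate 2 or 3. Without HT5 replicate 2 their log2FC came to -0.38 for HSD11B1 and -1.15 for HSD11B2, neither of them called, and without HT5 replicate 1 it came to -1.42 and -2.31. The day 7 calls of both enzymes held whichever of the 6 libraries was left out.

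Many cell type markers moved along with the receptor and the enzymes. On day 7, 23.7% of all genes were called higher and 23.7% lower. The counts given below for airway epithelium, alveolar type 2 and macrophage markers are near those shares. The summed level of the endothelial markers was 818 to 1190 CPM in HT7 against 2010 to 2340 CPM in NT7, and 3 of the 5 markers tested were lower on day 7. The alveolar type 1 markers summed to 1980 to 2640 CPM in HT7 against 6760 to 7610 CPM in NT7, with 4 of 6 lower. Fibroblast markers came to 7390 to 8520 against 8780 to 11100 CPM, with 3 of 7 lower and 1 higher. Smooth muscle and pericyte markers summed to 660 to 842 CPM in HT7 against 1000 to 1410 CPM in NT7, with 3 of 5 lower. Airway epithelium markers had 102 to 138 against 201 to 243 CPM, with 1 of 4 higher and 1 lower, and erythroid markers 43.2 to 63.5 against 114 to 194 CPM, with both lower. Alveolar type 2 markers overlapped, at 13400 to 29400 CPM in HT7 and 17200 to 23200 CPM in NT7, with 1 of 7 higher, 2 lower and 4 uncalled. The part of such shifts in the decline of NR3C1, HSD11B1 and HSD11B2 was not tested. The sum of the macrophage markers went the other way, at 1710 to 2330 CPM in HT7 against 1090 to 1280 CPM in NT7, but the single markers were mixed. MARCO was lower at a log2FC of -2.19, and MRC1, C1QA and C1QB were uncalled with log2FC below 0. Of the 7 tested, 2 were higher and 1 lower. One of the higher ones, CD68, is counted on a locus of 7 genes, so this sum also holds reads of other genes, as do those of the alveolar type 1 list through AGER, the type 2 list through SFTPB and the airway list through TPPP3, its 1 lower gene, each on a locus of 2. Lymphocyte markers were near 0, at no more than 21.4 CPM in sum in any library, and 4 of 6 were lower on day 7.

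FKBP5, TSC22D3 and ZBTB16, which are among the genes most reliably switched on by the loaded receptor in many tissues, followed another course. All were high in some HT3 libraries and low in both HT5 libraries, and in HT7 each was above HT5. The summed level of neutrophil markers was 1140 to 1670 CPM in HT3, 702 to 951 CPM in HT5 and 1050 to 3460 CPM in HT7. In normoxia it was 296 to 795 CPM in NT3 and 157 to 691 CPM in NT5. No neutrophil marker was called between HT5 and HT3. The log2FC was -0.58, -0.90 and -1.49 for S100A8, S100A9 and S100A12, and 0.37, 0.10 and 0.63 for CSF3R, CXCR2 and MPO. HT3 replicate 2, the highest of its group for all 3 genes, also had the highest neutrophil sum of that group. Its skeletal and heart muscle markers summed to 347 CPM. In HT5 the order was the reverse, as replicate 2 was higher for all 3 genes and had the lower neutrophil sum, 702 against 951 CPM. The part of neutrophils or of muscle RNA was not tested. FKBP5 encodes a co-chaperone that lowers the receptor's affinity for hormone and so closes a feedback loop. TSC22D3 encodes GILZ, a leucine zipper protein that carries part of the anti-inflammatory action, and ZBTB16 encodes the zinc finger transcription factor PLZF.

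FKBP5 (chromosome 12, 25474864 to 25754366, strand -1) had 132, 309 and 58.4 CPM in HT3 and 48.5, 34.3 and 29.9 CPM in NT3. It had 23.0 and 28.0 CPM in HT5 against 31.9, 26.6 and 35.7 CPM in NT5, and 276, 93.7 and 186 CPM in HT7 against 96.1, 89.1 and 42.9 CPM in NT7. The 3 HT3 libraries lay above all of NT3 but spread over a wide range, HT5 mixed with NT5, and the lowest HT7 library fell within NT7. The log2FC was 2.15 ± 0.503 on day 3, -0.30 ± 0.557 on day 5 and then 1.29 ± 0.489 by day 7, with edgeR adjusted p-values of 0.056, 0.712 and 0.0418. The day 3 difference thus missed the threshold narrowly, with an adjusted p-value of 0.0033 in DESeq2, and leaving out HT3 replicate 2 took its log2FC to 1.34 (edgeR adjusted p = 0.221). The day 7 call held in 1 of 6 fits with a library left out, with log2FC between 0.88 without HT7 replicate 1 and 1.61.

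The annotated span of FKBP5 also covers TEAD3 and TULP1 on its own strand, which are counted as loci of their own. TEAD3 had log2FC of -0.06 on day 3 and -0.07 on day 7, and TULP1 had 0.24 and -1.68. PPARD and FANCE overlap it on the opposite strand, with -0.09 and 0.14 for PPARD and -0.47 and -0.86 for FANCE. TULP1 and FANCE were lower on day 7, and none of the 4 was called higher on these days.

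TSC22D3 (chromosome X, 56332880 to 56399958, strand -1) had 255, 313 and 134 CPM in HT3 and 208, 144 and 161 CPM in NT3. It had 76.3 and 91.1 CPM in HT5 against 150, 126 and 178 CPM in NT5, and 169, 160 and 152 CPM in HT7 against 410, 341 and 218 CPM in NT7. Hyperoxia and normoxia overlapped on day 3 and were apart on days 5 and 7, with hyperoxia lower. The log2FC was 0.45 ± 0.268, -0.86 ± 0.308 and -1.01 ± 0.27 on days 3, 5 and 7, with edgeR adjusted p-values of 0.447, 0.0463 and 0.00653. The day 7 call held in all 6 fits without 1 library and the day 5 call in 0 of 5, where log2FC stayed between -1.01 and -0.72. On day 7 TSC22D3 was thus lower and FKBP5 higher in the same hyperoxic lungs.

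ZBTB16 (chromosome 1, 102188213 to 102371526, strand -1) had 215, 374 and 120 CPM in HT3 and 141, 58.3 and 82.8 CPM in NT3. It had 21.9 and 27.7 CPM in HT5 against 36.8, 44.9 and 77.3 CPM in NT5, and 198, 95.1 and 205 CPM in HT7 against 199, 89.7 and 134 CPM in NT7. Both HT5 libraries were below every other library of the study for this gene. No comparison with normoxia was called: the log2FC was 1.33 ± 0.445 on day 3, -1.10 ± 0.519 on day 5 and then 0.24 ± 0.438 by day 7, with edgeR adjusted p-values of 0.166, 0.119 and 0.683. The 95% interval of the day 7 difference ran from -0.70 to 1.17.

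**Figure D2:**
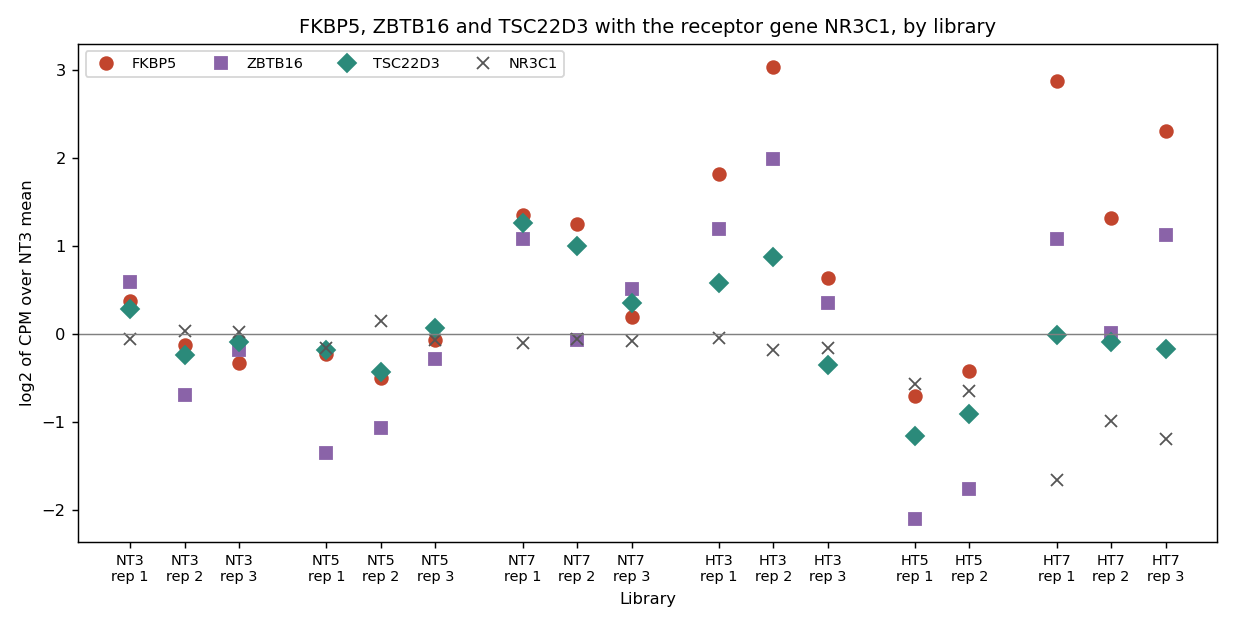
Log2 ratio of the CPM in each of the 17 libraries to the mean CPM of NT3 for FKBP5, ZBTB16, TSC22D3 and NR3C1, arranged by group. Each point is 1 gene in 1 library, and the replicates have no order. FKBP5, TSC22D3 and ZBTB16 are low in both HT5 libraries, while HT3 replicate 2 is the highest of its group for each of them, at 309, 313 and 374 CPM.

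The low point on day 5 was examined with comparisons between days that were added after these values had been seen. Within hyperoxia, FKBP5, TSC22D3 and ZBTB16 all fell from day 3 to day 5, by 2.71, 1.48 and 3.25 on the log2 scale, with edgeR adjusted p-values of 0.00723, 0.00575 and 0.00222. NR3C1, HSD11B1 and HSD11B2 were also lower on day 5, which made 6 of 9 genes lower, where 22.8% of all tested genes were called in either direction, 11.5% higher and 11.2% lower. From day 5 to day 7 in hyperoxia FKBP5 and ZBTB16 were higher, by 2.86 and 2.74 on the log2 scale, at edgeR adjusted p-values of 0.0347 and 0.0288. For TSC22D3 the log2FC was 0.94 and did not pass (edgeR adjusted p = 0.129). NR3C1 was lower by a log2FC of -0.64 (edgeR adjusted p = 0.0461), and 1.45% of all genes were called, 0.289% higher and 1.16% lower. Each of the day 7 against day 5 calls held in 1 of 5 fits with a library left out. The fall of ZBTB16 from day 3 to day 5 held in 5 of 5, those of FKBP5, TSC22D3 and HSD11B1 in 4 of 5, that of HSD11B2 in 2 and that of NR3C1 in 1. Without HT5 replicate 2, or with only the compared groups in the fit, ZBTB16 alone was called.

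Whether the effect of hyperoxia itself differed between days 3 and 5 was a separate test, in which edgeR called 0 of the 9 genes and 1.46% of all genes, 0.624% higher and 0.837% lower. The differences were -2.45 for FKBP5, -2.43 for ZBTB16 and -1.31 for TSC22D3, with edgeR adjusted p-values of 0.0974, 0.0784 and 0.0999. Unadjusted edgeR p-values were under 0.05 for 5 of the 9 genes and for 2664 of all 13142 genes, and DESeq2 called 4 of the 9. Between days 5 and 7 the effect differed for 0 of the 9 genes and for 0% of all genes in edgeR, and DESeq2 called 0 of the 9. Unadjusted edgeR p-values were under 0.05 for NR3C1, SGK1 and ERRFI1, and for 1125 of all 13142 genes.

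In normoxia, TSC22D3 and ZBTB16 reached their highest mean on day 7, at 323 ± 96.9 and 141 ± 55 CPM (SD, n = 3), after 152 ± 26.1 and 53 ± 21.4 CPM on day 5. FKBP5 had a mean of 76 ± 28.9 CPM on day 7 and 31.4 ± 4.57 CPM on day 5. Neutrophil markers summed to 1060 to 1150 CPM in NT7, above every NT5 and NT3 library, and their part in these levels was not tested. None of these passed the test, since edgeR called 0 of 13142 genes between NT7 and NT5 or between NT7 and NT3. Unadjusted p-values were under 0.05 for 585 and 824 of all genes, among them 3 and 1 of the 9, and DESeq2 called 0 of the 9 in both. For TSC22D3 the log2FC of NT7 against NT3 was 0.92 ± 0.269, with an edgeR p of 0.00396 before adjustment and 0.54 after it. The day 7 comparison of TSC22D3 set 152 to 169 CPM in HT7 against 218 to 410 CPM in NT7, and the difference between HT7 and HT3 did not pass the edgeR test (log2FC -0.54, 95% interval from -1.12 to 0.03, adjusted p = 0.112).

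DUSP1, SGK1 and ERRFI1 respond to glucocorticoids within hours and also to growth factors and cell stress. All were higher in hyperoxia on day 7, and none was called on day 3 or day 5. DUSP1 encodes a phosphatase that shuts off MAP kinases, SGK1 a kinase that promotes sodium uptake through the epithelial sodium channel, and ERRFI1 a feedback inhibitor of the EGF receptor.

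ERRFI1 (chromosome 13, 141842416 to 141854661, strand 1) had 546, 240 and 266 CPM in HT7 against 116, 162 and 74.7 CPM in NT7. It had 108, 219 and 122 CPM in HT3 and 101 and 168 CPM in HT5, against 140, 92.6 and 114 CPM in NT3 and 142, 96.9 and 118 CPM in NT5. The day 7 groups were apart and the earlier ones overlapped. The log2FC on day 7 was 1.57 ± 0.364, or 2.98-fold (edgeR adjusted p = 0.00259), and the call held in 6 of 6 fits with a library left out. PARK7, which overlaps ERRFI1 on the opposite strand, had a log2FC of 0.18 on day 7.

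DUSP1 (chromosome 3, 53838491 to 53841486, strand -1) had 485, 197 and 270 CPM in HT7 against 144, 176 and 80.7 CPM in NT7. It had 133, 205 and 212 CPM in HT3, 87.6 and 331 CPM in HT5, 136, 175 and 198 CPM in NT3, and 130, 140 and 332 CPM in NT5. The day 7 groups did not overlap, the highest NT7 library standing at 176 CPM and the lowest HT7 library at 197 CPM, and on day 5 both arms spread widely. Its day 7 log2FC was 1.25 ± 0.48 (edgeR adjusted p = 0.0439).

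SGK1 (chromosome 12, 124622537 to 124761211, strand -1) had 843, 381 and 478 CPM in HT7 against 341, 370 and 217 CPM in NT7. It had 339, 459 and 264 CPM in HT3, 201 and 400 CPM in HT5, 363, 315 and 387 CPM in NT3, and 252, 317 and 469 CPM in NT5. The day 7 groups were apart by a narrow gap between 370 and 381 CPM, and the earlier groups overlapped. Its day 7 log2FC was 0.87 ± 0.332 (edgeR adjusted p = 0.0413).

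HT7 replicate 1 was the highest of its group for FKBP5, TSC22D3, DUSP1, SGK1 and ERRFI1, and its neutrophil markers summed to 3460 CPM against 1050 and 1540 CPM in the other HT7 libraries. Without it log2FC on day 7 was 0.81 for DUSP1, 0.47 for SGK1 and 0.88 for FKBP5, all uncalled, and 1.10 for ERRFI1, still called. The call of DUSP1 held in 2 and that of SGK1 in 3 of the 6 fits without 1 library. The part of neutrophils in these differences was not tested.

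Set side by side by day, edgeR called 0 of the 9 genes on day 3, 4 on day 5 and 8 on day 7. On day 3, 1.03% of all genes were called (0.517% in each direction), and DESeq2 called FKBP5 alone. Unadjusted edgeR p was under 0.05 on day 3 for 2 of the 9 and for 2013 of all 13142 genes. On day 5 NR3C1, HSD11B1, HSD11B2 and TSC22D3 were lower, and 31.3% of all genes were called, 15.9% higher and 15.4% lower. On day 7 the same 4 genes were lower and FKBP5, DUSP1, SGK1 and ERRFI1 were higher, with 47.4% of all genes called, 23.7% in each direction. The groups did not overlap for 1 gene on day 3, 5 on day 5 and 7 on day 7, beside 26.7%, 55.7% and 54.5% of all genes. By direction, 1 gene was apart with hyperoxia higher on day 3 (12.8% of all genes higher and 13.9% lower), 5 with hyperoxia lower on day 5 (26.5% and 29.2%), and 3 higher and 4 lower on day 7 (27.3% and 27.2%). Over the mean of the 3 days 4 genes were lower and FKBP5 and ERRFI1 were higher, where 54.4% of all genes were called, 26.9% higher and 27.5% lower. With the edgeR p-values used here, the study's limits for a changed gene, a log2FC beyond 2 with an adjusted p under 0.01, were reached by 0 of the 9 genes on any day or in the mean of days, and by 0.0533%, 1.58%, 4.59% and 1.5% of all genes on day 3, day 5, day 7 and in the mean. With DESeq2, the study's own test, FKBP5 passed those limits on day 3, at a log2FC of 2.15 and an adjusted p of 0.0033. In edgeR FKBP5 and ZBTB16 passed them as lower in HT5 than in HT3, where 0.852% of all genes passed, and 0 of the 9 passed for HT7 against HT3 (3.52% of all genes) or for the change in effect from day 3 to day 7 (1.56%).

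**Figure D3:**
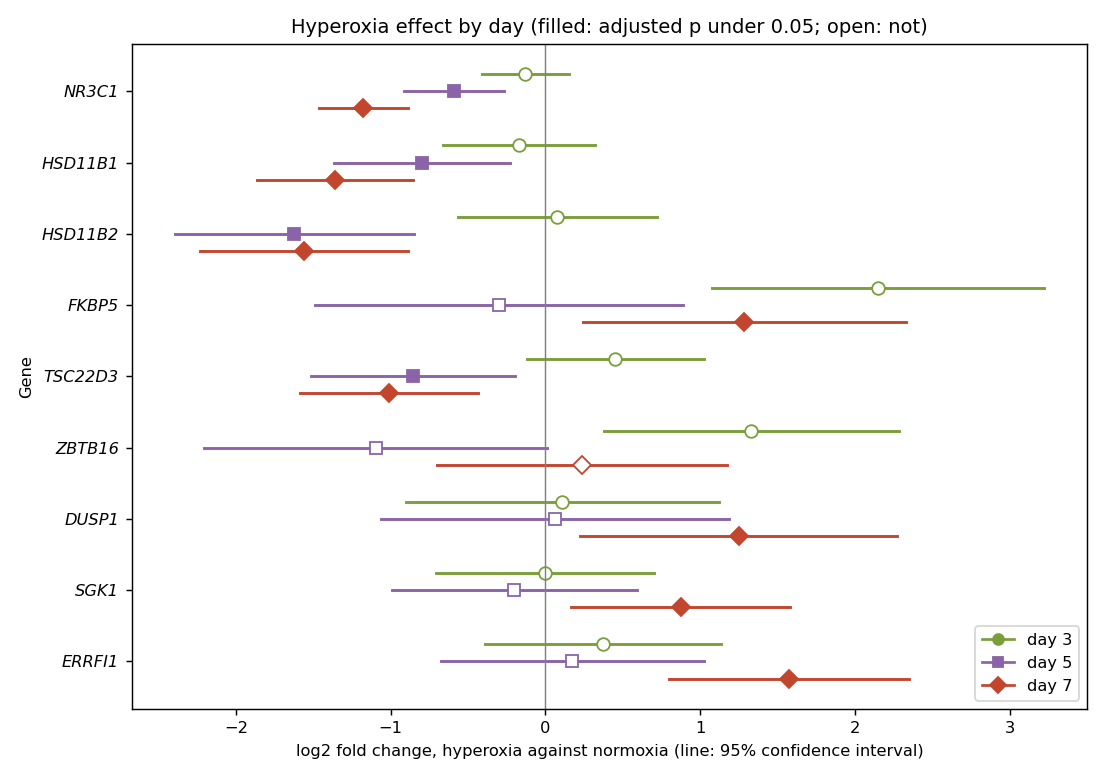
Log2FC of hyperoxia against normoxia for each of the 9 genes on days 3, 5 and 7, from edgeR. Points are estimates, lines are unadjusted 95% intervals, and points are filled where the adjusted p-value is under 0.05. NR3C1 moves down from -0.13 to -1.18 over the days, and FKBP5 goes from 2.15 to -0.30 and back to 1.29.

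The change in the hyperoxia effect between day 3 and day 7 was called for 4 genes, all toward lower values, where 20.5% of all genes were called, 9.52% higher and 11% lower. The day 7 effect was below the day 3 effect by a log2 difference of -1.05 ± 0.188 for NR3C1, -1.19 ± 0.328 for HSD11B1, -1.64 ± 0.434 for HSD11B2 and -1.46 ± 0.38 for TSC22D3, with edgeR adjusted p-values of 0.00271, 0.0206, 0.0175 and 0.0162. For ERRFI1 the difference was 1.199 ± 0.506 and did not pass (edgeR adjusted p = 0.107). Within hyperoxia alone, HT7 was below HT3 for NR3C1, HSD11B1 and HSD11B2 and above it for ERRFI1, where 44.3% of all genes were called, 22.3% higher and 22% lower. The log2FC of ERRFI1 was 1.23 and its call held in 4 of 6 fits with a library left out, being lost without HT3 replicate 1 (1.04) and without HT7 replicate 1 (0.76). In normoxia the same days gave 0 called genes of 9, against 0% of all genes.

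Of 21 tested genes of the receptor's machinery, mostly chaperones and cofactors but also the related receptor NR3C2, the enzyme H6PD and the pump ABCB1, 0 were called on day 3, 8 were higher on day 5, and 9 were higher and 3 lower on day 7. Among all genes 15.9% were higher and 15.4% lower on day 5, and 23.7% each way on day 7. On day 3 an unadjusted edgeR p was under 0.05 for 3 of the 21, close to the background of 2013 of all 13142 genes, and DESeq2 called 1 of the list. Their median log2FC on day 7 was 0.31, beside -0.01 for all genes. NCOA1, the steroid receptor coactivator SRC-1, went from 178 to 209 CPM in NT7 to 440 to 468 CPM in HT7 (log2FC 1.25, edgeR adjusted p = 8.8e-06), with 507 to 624 CPM in HT5 against 191 to 244 CPM in NT5 (log2FC 1.39). MED1, the Mediator subunit that nuclear receptors contact, had a log2FC of 0.69 on day 7 and 0.71 on day 5. The HSP90 chaperone gene HSP90AB1 was higher by 0.59 and HSPA8, a constitutive HSP70, by 0.54 on the log2 scale on day 7. HSP90AB1 has 3 entries under its human name, of which the most counted was used, so reads may be split with copies.

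Lower on day 7 were ABCB1, a pump that exports steroids (39.3 to 58.3 CPM in HT7 against 83.1 to 98.7 CPM in NT7, log2FC -0.84), and the coactivators NCOA2 and NCOA3, at -0.42 and -0.40. On day 5 the count of higher genes in this list depended on 1 library, being 1 without HT5 replicate 2.

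Of 24 other tested genes known to be induced by glucocorticoids, 0 were called on day 3, 3 were higher and 2 lower on day 5, and 10 were higher and 3 lower on day 7, with a median log2FC of 0.52. The day 5 counts are close to the background, in which 15.9% of all genes were higher and 15.4% lower, and on day 7 the background was 23.7% each way. MT2A, a metal-binding metallothionein that also answers to metals and oxidants, had 94.8 to 788 CPM in HT7 against 14.3 to 36.8 CPM in NT7 (log2FC 3.87, edgeR adjusted p = 0.00109). Its human name has 2 entries in the table. CRISPLD2, a secreted protein, had 109 to 201 CPM in HT7 against 32.8 to 42.2 CPM in NT7, a log2FC of 2.24. SCNN1A, the alpha subunit of the epithelial sodium channel, was higher by 1.10 and RASD1, a small GTPase, by 1.43 on the log2 scale. HT7 replicate 1, with its neutrophil sum of 3460 CPM, was the highest of its group for 18 of the 24 genes and NT7 replicate 3 the lowest for 20, and the part of neutrophils was not tested.

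Lower on day 7 were GPX3, a secreted glutathione peroxidase (80.9 to 157 CPM in HT7 against 220 to 387 CPM in NT7, log2FC -1.52), the clock repressor CRY2 (-1.10) and the monoamine oxidase MAOA (-1.09). On day 5 CRISPLD2, BCL6 and SCNN1A were higher by 1.42, 0.92 and 0.91, and MAOA and CRY2 were lower at -1.01 and -0.48. DESeq2 called 7 of this list higher and 3 lower on day 5, and edgeR called 6 higher without NT5 replicate 1. Without HT5 replicate 2 the count was 0 in each direction.

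On day 3, where none of these 24 genes passed, 21 had a log2FC above 0 and the median was 0.65, beside 0.00 for all genes. Unadjusted edgeR p was under 0.05 for 8 of the 24 and for 2013 of all 13142 genes, and DESeq2 called 4 of the 24. HT3 replicate 2 was the highest of its group for 17 of the 24 genes and for 6 of the 9 main genes. That library also held RNA of skeletal or heart muscle, with a summed marker level of 347 CPM against 5.21 and 44.2 CPM in the other HT3 libraries. HT5 replicate 1 had a muscle sum of 302 CPM, 23.0 CPM of FKBP5 and 21.9 CPM of ZBTB16. The part of muscle RNA in the values of either library was not tested.

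Between day 3 and day 5 in hyperoxia 4 of the 24 genes fell and 0 rose, where 11.2% of all genes were lower and 11.5% higher, and the count of lower genes was 0 without HT5 replicate 2. The count of 4 lower genes is close to this background. GPX3 went down by a log2FC of -2.28, MAOA by -1.57, KLF15 by -1.44 and KLF9 by -1.38. The last 2 are Krüppel-like transcription factors that the receptor induces directly. The edgeR adjusted p-values lay between 0.00315 and 0.00974. KLF15 had 41.4 to 94.5 CPM in HT3 and 18.9 to 26.3 CPM in HT5, and KLF9 had 123 to 264 CPM in HT3 and 66.4 to 74.3 CPM in HT5. FKBP5, TSC22D3 and ZBTB16 fell over the same interval.

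Of 14 tested genes that glucocorticoids are known to hold down, 0 were called on day 3, 6 were higher and 1 lower on day 5, and 8 were higher and 0 lower on day 7. Of all genes 15.9% were higher and 15.4% lower on day 5, and 23.7% each way on day 7. The medians of the list were 1.17, 1.28 and 1.46 on days 3, 5 and 7, and HT3 replicate 3 was the highest of its group for 13 of the 14 genes. The inducible cyclooxygenase PTGS2 had 101 to 926 CPM in HT7 against 12.4 to 20.9 CPM in NT7, a log2FC of 5.18 (edgeR adjusted p = 6.12e-05). The monocyte chemokine CCL2 had 136 to 248 CPM in HT7 against 1.48 to 17 CPM in NT7, a log2FC of 4.39. The cytokine IL6 had a log2FC of 4.28, with 2.84 to 38.5 CPM in HT7 and 0 to 1.31 CPM in NT7, and the neutrophil chemokine CXCL8 had 3.32.

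CCL2, CXCL8, PTGS2 and the cytokine IL1B led on day 5 at log2FC of 5.47, 3.24, 3.08 and 2.37, and JUN, a subunit of the AP-1 factor, was lower at -0.78. CCL2 and PTGS2 are among genes that the study chose from these same samples. The number of higher genes was 2 on day 5 without HT5 replicate 2 and 4 on day 7 without HT7 replicate 1. On day 3 the unadjusted edgeR p was under 0.05 for 6 of the 14 and for 2013 of all 13142 genes, and DESeq2 called 2 of the 14. Macrophage marker sums were 1610 to 1670 CPM in HT5 against 830 to 1460 CPM in NT5, and neutrophil sums 702 to 951 against 157 to 691 CPM. On day 5 CD68 and CD163 of the macrophage list and CSF3R and CXCR2 of the neutrophil list were called higher. MRC1, MARCO, C1QA, C1QB and all lymphocyte markers were uncalled with log2FC below 0. HT7 replicate 1, with 3460 CPM of neutrophil markers, was the highest of its group for 8 of the 14. The part of leukocytes was not tested.

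**Figure D4:**
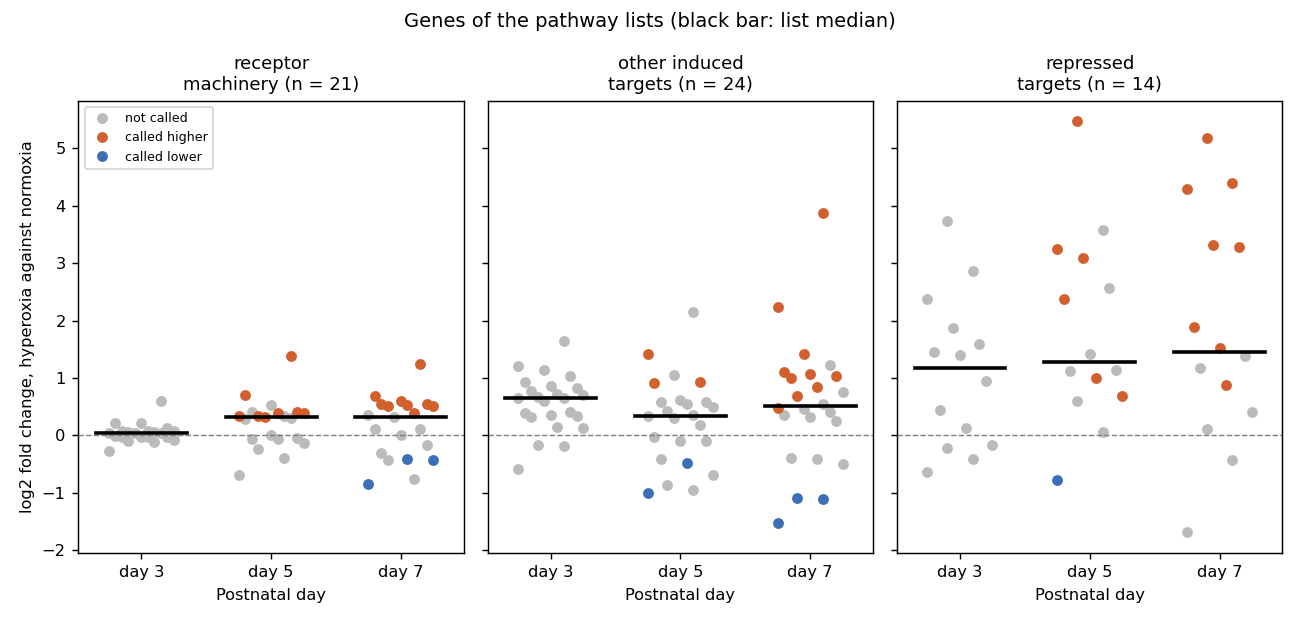
Log2FC of hyperoxia against normoxia on days 3, 5 and 7 for each gene of 3 lists around the receptor: receptor machinery (21 genes), other induced targets (24) and repressed targets (14). Each point is a gene, coloured where it was called higher or lower and grey otherwise, and bars are medians. On day 7 the medians were 0.31, 0.52 and 1.46.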

How the data were processed

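Stranded mRNA libraries of 17 lungs were sequenced as paired ends. The authors deposited raw counts per locus in 1 table, with 13827 entries on 13313 loci, and the submitters' processing notes name FastQC, STAR 2.7.10a and the genome build OryCun2.0. The counting program, and whether it used strand, are not given in the sources used here. A locus that covers several genes repeats its counts for each. None of the 9 genes shares a locus. Every column of per-sample values was used.

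The analysis ran in R 4.3.3 with edgeR 4.0.16. After filterByExpr, which left 13142 genes and dropped 685, libraries were scaled by TMM, and a quasi-likelihood model of 6 group means was fitted to all libraries, so HT5, with 2, shares the spread of the others. Benjamini-Hochberg adjustment covered every tested gene, and log2FC used a prior count of 0.125. Intervals at 95% are unadjusted and SE is the log2FC over the root of F. Gene lists were described by counts and medians, without a set test. Counts of genes called by DESeq2 stand without the share of all genes. All 9 genes are named, and of each list the genes called, at most 4 per direction by size of log2FC. Members and lists were chosen with earlier results of these data known. Comparisons of day 5 with days 3 and 7 within a condition, of day 7 with day 5 in normoxia, and of the effects of day 5 with those of days 3 and 7 were added after seeing the data.

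On data simulated from these libraries, changes of 1 and 2 on the log2 scale were recovered in 68% and 89% of cases for day 3, 61% and 91% for day 5, and 64% and 97% for day 7, on 13142 genes with 100 changed by each size. Alternatives were DESeq2 1.42.0, its size factors, no filter, 1 entry per locus, only the groups compared, a block for the replicate number, the study's thresholds, and each library left out. Same-numbered libraries of the arms deviated together on day 3 (r = 0.166, 0.131 and 0.199) but r was not above 0.1 in every pair of day 7 (0.174, 0.109 and 0.0695), although each correlated best with its own number, and day 5 gave only 2 pairs (0.264 and 0.141, the first best with its own number). The pairing on day 3 comes from the values, not from a stated litter. Figures were drawn with matplotlib 3.10.9.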

Additional observations from a re-analysis of the deposited data

Results flagged for a closer look

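The effect of hyperoxia differed between days 3 and 7, by the edgeR interaction test, for 4 of the 9 genes. The day 7 effect minus the day 3 effect was -1.05 for NR3C1, -1.19 for HSD11B1, -1.64 for HSD11B2 and -1.46 for TSC22D3 on the log2 scale, and each was lower on day 7. For TSC22D3 the effects on the single days were 0.45 and -1.01, for HSD11B2 0.08 and -1.56, for HSD11B1 -0.17 and -1.36, and for NR3C1 -0.13 and -1.18. The calls held in 12 of 12 fits that left 1 library out for NR3C1, HSD11B2 and TSC22D3 and in 10 of 12 for HSD11B1, which was lost without HT3 replicate 1 (-1.06) and without HT7 replicate 3 (-1.07).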

How the results depend on the processing

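Scaling by DESeq2's size factors, no count filter and 1 entry per locus changed no direction and no call of the 9 genes. With DESeq2, the number of genes called was 1 on day 3, 4 for the effect of day 5 minus day 3 and 5 for day 7 against day 5 in hyperoxia. Fitting only the groups compared lost the calls of HSD11B1 on day 5 (-0.79) and of SGK1 on day 7 (0.88), and left 1 gene for day 5 against day 3 in hyperoxia and 0 for day 7 against day 5. The replicate block within day left 2 genes on day 5, with HSD11B1 (-0.77) and TSC22D3 (-0.72) no longer called, and the block changed no call on day 3. With a block for the replicate number over all days DUSP1 and SGK1 were no longer called on day 7 (log2FC 1.29 and 0.89), nor HSD11B2 for day 5 against day 3 in hyperoxia (-1.10). At the study's thresholds 0 genes passed on day 5, day 7, the mean of days, day 7 against day 3 in hyperoxia, the day 7 minus day 3 effect and day 7 against day 5 in hyperoxia, and 2 for day 5 against day 3 in hyperoxia.

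Leaving out 1 library gave 0 to 1 genes called on day 3, 0 to 3 on day 5, 5 to 8 on day 7, 0 to 3 for the day 5 minus day 3 effect, 1 to 6 for day 5 against day 3 in hyperoxia, 3 to 5 for day 7 against day 3 and 0 to 4 for day 7 against day 5. The 0 on day 5 came without HT5 replicate 2, and the counts were 2 without NT5 replicate 2 or replicate 3. On day 7 the count was 5 without HT7 replicate 1, NT7 replicate 1 or NT7 replicate 3. For day 7 against day 5 in hyperoxia it was 0 without HT5 replicate 1 or 2 or HT7 replicate 1 or 3. Where HT5 kept 1 library, that library was assumed to vary like the other groups.

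Values that changed sign were all uncalled. Hyperoxia against normoxia on day 3 gave SGK1 0.000482 with only the groups compared and 0.000276 in DESeq2. On day 5 SGK1 was 0.0070 with the block within day. ERRFI1 in NT7 against NT3 was -0.016 with the block. For the effect of day 5 minus day 3 the block within day gave 0.25 for DUSP1 and 0.042 for SGK1, and for that of day 7 minus day 5 the blocks gave -0.033 for HSD11B2 and 0.0059 for TSC22D3. With 1 library left out the log2FC on day 3 ranged from -0.028 to 0.30 for DUSP1, -0.0064 to 0.56 for ERRFI1, -0.30 to 0.020 for HSD11B1, -0.12 to 0.21 for HSD11B2 and -0.23 to 0.17 for SGK1. On day 5 it ranged from -1.21 to 0.72 for DUSP1, -0.26 to 0.50 for ERRFI1 and -0.80 to 0.21 for SGK1. ZBTB16 ranged from -0.0036 to 0.57 on day 7 and from -0.0076 to 0.30 in the mean of days. For the effect of day 5 minus day 3 the ranges were -1.33 to 0.61 for DUSP1, -0.64 to 0.18 for ERRFI1 and -0.80 to 0.21 for SGK1. For that of day 7 minus day 5 they were -1.003 to 0.060 for HSD11B1, -0.43 to 0.75 for HSD11B2 and -0.37 to 0.055 for TSC22D3. Between days in hyperoxia the ranges were, for day 5 against day 3, -1.08 to 0.86 for DUSP1, -0.59 to 0.23 for ERRFI1 and -0.84 to 0.18 for SGK1. For day 7 against day 3 FKBP5 ranged from -0.25 to 0.96. For day 7 against day 5 they were -0.062 to 1.85 for DUSP1, -0.76 to 0.30 for HSD11B1 and -0.71 to 0.47 for HSD11B2. In normoxia NT7 against NT3 gave -0.27 to 0.27 for ERRFI1 and -0.35 to 0.0013 for SGK1, and NT7 against NT5 gave -0.32 to 0.23 for ERRFI1, -0.12 to 0.035 for NR3C1 and -0.35 to 0.12 for SGK1. Depth limits HSD11B2 most, at 21 to 142 counts per library.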
